A study of Danio rerio with 24 samples.

Results

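A set of 9 genes of the zebrafish inner ear and lateral line was described: otofa, otofb, slc17a8, tmc2b, pcdh15a, cdh23, myo7aa, oc90 and otomp. They were found by gene symbol, and the symbols match 10 of the 25432 entries of each expression table, because cdh23 has 2 entries. The genes were selected on function and on the TPM of 3Tg and 2Tg embryos in these same tables. Their differences between these groups are therefore a description and carry no test.

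The values are TPM (a share of all transcripts, scaled by transcript length) from RNA of whole embryos at 4 days post fertilization, in 24 libraries. There were 4 lines, each with 3 libraries of triple transgenic (3Tg) and 3 of double transgenic (2Tg) siblings. The 3Tg embryos carried the CRISPR-Q components and a guide RNA. Their 2Tg siblings carried the components and no guide. The guides of the smn1 line and of the tardbp line, an array against tardbp and tardbpl, were used for knockdown (CRISPR-QKD). Those of the lin28a and sox9b lines were used for transcriptional activation (CRISPR-Qa). All embryos, controls included, were heated for 1 h at 2 and at 3 days to induce the activator QFvpr from the hsp70l promoter. The labels do not say how many embryos were pooled in a library or whether replicates were separate clutches, so the spread between replicates may be partly technical.

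Hair cells of the fish ear and of the lateral line, a row of sense organs in the skin, turn movement into an electrical signal. Tip links between the stereocilia of the hair bundle pull on a transduction channel, and the depolarized cell releases glutamate at ribbon synapses onto sensory neurons. In the ear the bundles are loaded by otoliths, calcium carbonate stones grown on a protein matrix that the otic epithelium secretes. In a whole embryo, fewer cells of a type and less RNA per cell cannot be told apart. Some of these genes are also transcribed in the retina or the brain.

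The otolith matrix gene otomp had the highest level of the 9, with a median of 29.2 TPM over the 24 libraries and a range of 11.8 to 38.7. The ribbon synapse genes otofa and otofb followed with medians of 6.46 and 4.52 TPM. Medians were 3.05 TPM for myo7aa, 1.69 for pcdh15a and 1.29 for slc17a8. The least abundant were oc90 at 0.815 TPM, tmc2b at 0.724, and the cdh23 entries at 0.283 and 0.260. TPM is scaled by length, so these levels can be set against each other. At least 1 TPM was reached in all 24 libraries by otofa and otomp, in 9 by oc90, in 4 by tmc2b and in none by either cdh23 entry. When the 8 groups were ordered by mean, the ranges of neighbouring groups overlapped in 7 of 7 cases for every entry except slc17a8, where they overlapped in 6 of 7.

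**Figure D1:**
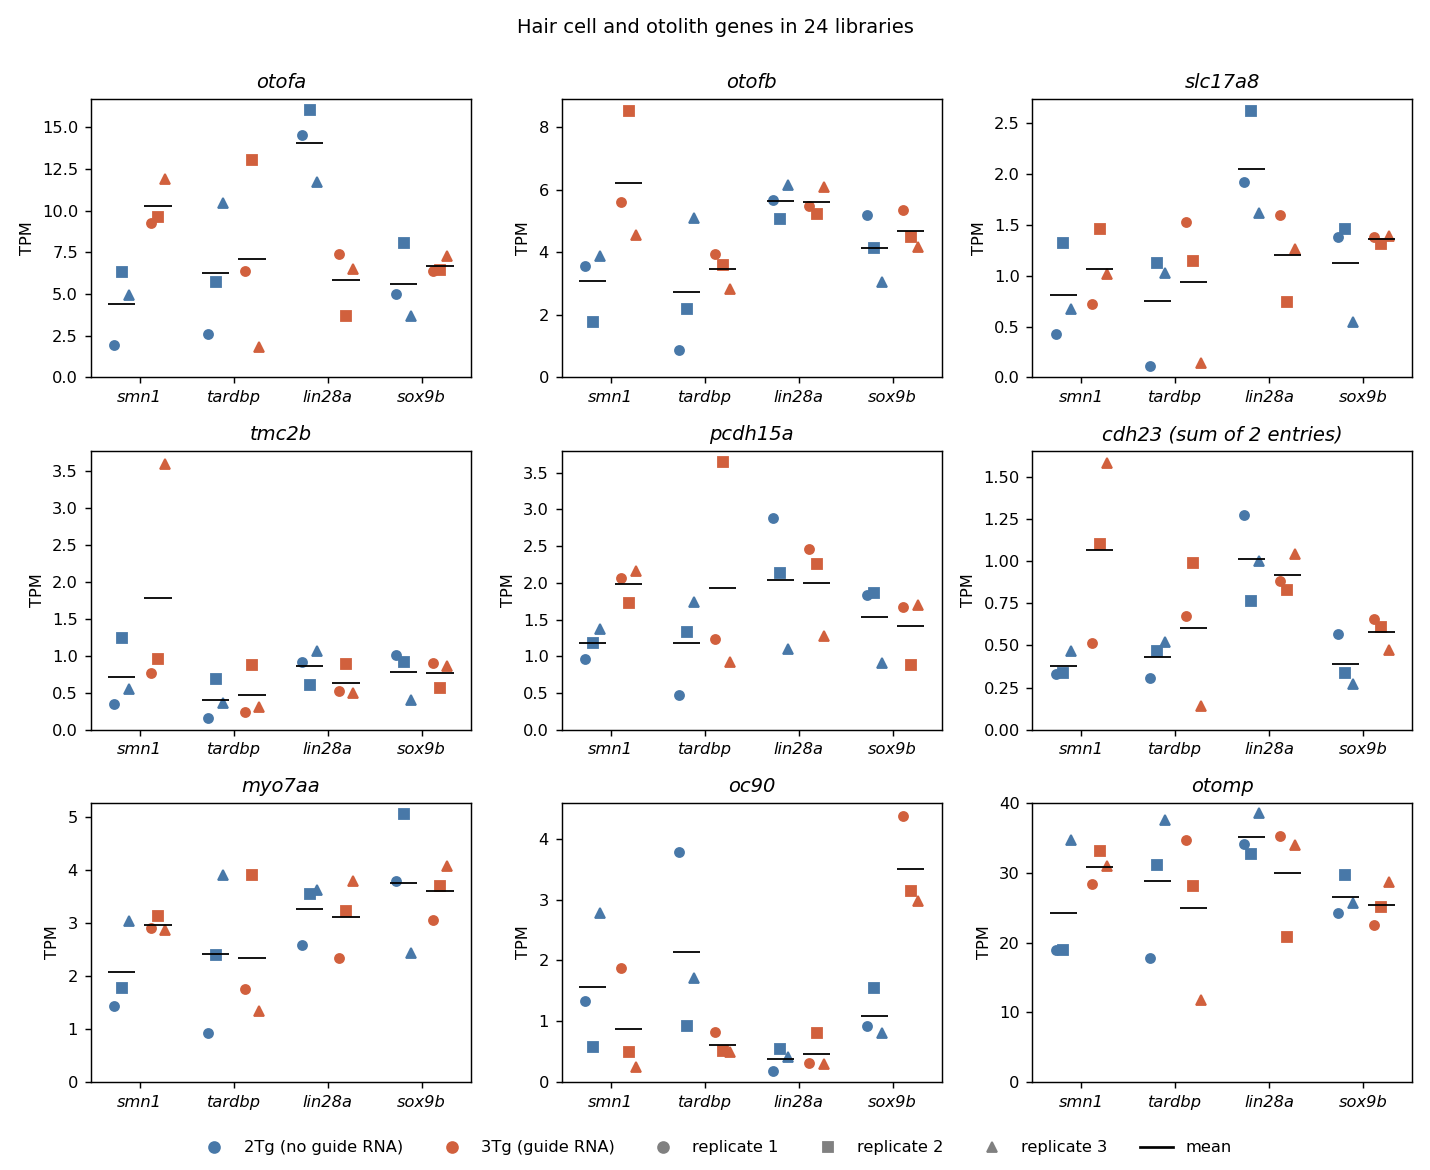
TPM of each gene (vertical axes, each with its own scale) in the 24 libraries, by line; blue is 2Tg, orange is 3Tg, marker shapes are replicates, bars are group means, and cdh23 is the sum of its 2 entries. The separated groups are otofa, otofb, pcdh15a and cdh23 in smn1, otofa and slc17a8 in lin28a, and oc90 in sox9b and tardbp.

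Hair cell genes that are not among the 9 were present in every group. The transcription factor pou4f3 averaged between 2.49 and 3.77 TPM over the 8 groups, and myo6b, a myosin of the hair bundle, between 4.60 and 9.26. The targeted genes differed in the labelled direction, with no overlap between groups: smn1 from 26.3 to 15.4 TPM, tardbp from 124 to 67.6, tardbpl from 198 to 105, lin28a from 0.801 to 4.76 and sox9b from 17.9 to 35.3 (means of 3). The TPM of 23 libraries summed to between 983631 and 990345. Those of tardbp 3Tg replicate 3 summed to 778190, with 3 genes taking 44.0% of them against 0.110% to 1.31% elsewhere. In lin28a 3Tg replicate 2, 26 photoreceptor genes summed to 2210 TPM, against 5901 and 6526 in replicates 1 and 3 of its group. In tardbp 2Tg replicate 1 they summed to 613 TPM, against 4277 and 5188 in replicates 2 and 3. The levels of otofb, slc17a8, tmc2b, pcdh15a and myo7aa were the lowest of the series in tardbp 2Tg replicate 1. In smn1 2Tg the photoreceptor sums were 2192 to 2417 TPM.

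otofa (ENSDARG00000030832) encodes otoferlin, the calcium sensor for vesicle fusion at the hair cell synapse. In smn1 it stood at 1.93, 6.34 and 4.96 TPM in 2Tg replicates 1 to 3 and at 9.24, 9.60 and 11.9 TPM in 3Tg replicates 1 to 3. Every 3Tg library was above every 2Tg library, as for 7.96% of all genes tested in smn1, while 11.2% were lower without overlap. The means were 4.41 ± 2.26 and 10.3 ± 1.45 TPM (SD, n = 3), a 2.33-fold higher level in 3Tg. On the log2(TPM + 1) scale the difference was 1.15 (SE 0.343 from limma), and it lay between 0.76 (without 2Tg replicate 1) and 1.42 when each library was left out in turn. Within libraries written in the same number format, a possible batch, the difference was 1.14 (6 decimals) and 0.97 (6 significant digits). The first rests on 2 libraries of 2Tg and 1 of 3Tg, the second on 1 of 2Tg and 2 of 3Tg. The smn1 3Tg libraries lay inside the range of the 9 2Tg libraries of the other lines, 2.62 to 16.0 TPM. The upper part of that range is lin28a 2Tg, at 11.7 to 16.0 TPM. The 2Tg libraries of tardbp and sox9b reached 10.4 and 8.09 TPM, below the 11.9 TPM of smn1 3Tg replicate 3.

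In lin28a the order was the other way round. otofa stood at 14.5, 16.0 and 11.7 TPM in 2Tg replicates 1 to 3 and at 7.41, 3.66 and 6.47 TPM in 3Tg replicates 1 to 3. No 3Tg library reached the lowest 2Tg library, as for 4.06% of all genes tested in lin28a, while 2.5% were higher without overlap. The means were 14.1 ± 2.18 and 5.85 ± 1.95 TPM (SD, n = 3), so 3Tg held 41.5% of the 2Tg level. The log2 difference was −1.17 (SE 0.279), and −0.92 without 3Tg replicate 2, the library of low photoreceptor sum. The lin28a 2Tg libraries, at 11.7 to 16.0 TPM, lay above all 9 of the 2Tg libraries of the other lines, which held 1.93 to 10.4 TPM. The lin28a 3Tg libraries lay inside that lower range. Among 3Tg libraries of other lines, smn1 replicate 3 and tardbp replicate 2 reached 11.9 and 13.0 TPM. This comparison between lines was not tested.

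otofa showed no such separation in the other lines. In tardbp it was 2.62, 5.72 and 10.4 TPM in the 2Tg libraries, against 6.37, 13.0 and 1.84 TPM in 3Tg, a log2 difference of 0.02 (SE 0.552). In sox9b it was 4.98, 8.09 and 3.67 TPM in the 2Tg libraries, against 6.39, 6.45 and 7.28 TPM in 3Tg, a log2 difference of 0.28 (SE 0.252). The 2Tg and 3Tg ranges overlapped in both lines.

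otofb (ENSDARG00000020581) is the second zebrafish otoferlin gene. In smn1 it was 3.55, 1.77 and 3.89 TPM in 2Tg and 5.60, 8.54 and 4.56 TPM in 3Tg, again with every 3Tg library above every 2Tg library. The means were 3.07 ± 1.14 and 6.23 ± 2.06 TPM (SD, n = 3), with a log2 difference of 0.84 (SE 0.310). In lin28a, where otofa was separated, otofb was 5.68, 5.07 and 6.15 TPM in 2Tg and 5.50, 5.21 and 6.10 TPM in 3Tg. These otofb ranges coincide, and the log2 difference was −0.01 (SE 0.212). The otofa to otofb ratio of TPM was accordingly 2.54 ± 0.624 in lin28a 2Tg and 1.04 ± 0.323 in lin28a 3Tg (SD, n = 3), while in smn1 it was 1.80 ± 1.59 and 1.80 ± 0.756. The log2 differences of otofb were 0.42 in tardbp and 0.16 in sox9b, both with overlapping groups. Without 2Tg replicate 1 the tardbp difference of otofb was 0.004.

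slc17a8 encodes Vglut3, the transporter that fills hair cell vesicles with glutamate. In lin28a it was 1.92, 2.62 and 1.62 TPM in 2Tg and 1.60, 0.740 and 1.27 TPM in 3Tg. The groups did not overlap, by a margin of 1.62 against 1.60 TPM. The 2Tg mean was 2.05 ± 0.513 TPM (SD, n = 3), and the 3Tg mean, with an SD of 0.432 TPM, was 58.5% of it; the log2 difference was −0.48 (SE 0.273), or −0.32 without 3Tg replicate 2. In smn1, tardbp and sox9b the log2 differences were 0.21, 0.12 and 0.18, with overlapping groups.

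Photoreceptor and neuronal transcripts were higher along with otofa in smn1 3Tg, by their sums. The 26 photoreceptor genes summed to 2192 to 2417 TPM in smn1 2Tg and to 2974 to 5188 TPM in 3Tg. All 26 were higher in 3Tg by sign, against 45.2% of all genes, with a median log2 difference of 0.86. None of the 26 was at 0 in all libraries of a group. The 20 pan-neuronal genes summed to 2085 to 2399 TPM in 2Tg and 2535 to 3048 TPM in 3Tg. Their part in the otofa, otofb and pcdh15a differences of smn1 was not tested. In lin28a, where otofa was lower, 24 of 26 photoreceptor genes and 20 of 20 pan-neuronal genes were also lower in 3Tg by sign. Their median log2 differences were −0.52 and −0.51, while 43% of all genes were higher by sign. Without 3Tg replicate 2 these counts were 18 and 14, and the medians −0.07 and −0.05. The photoreceptor sums were 6057 to 6379 TPM in lin28a 2Tg, and 3Tg replicates 1 and 3 stood at 5901 and 6526. In replicates 1 and 3 of 3Tg, otofa was at 7.41 and 6.47 TPM, below the 11.7 TPM of the lowest 2Tg library. The part of photoreceptor and neuronal transcripts in the otofa difference of lin28a was not tested either.

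**Figure D2:**
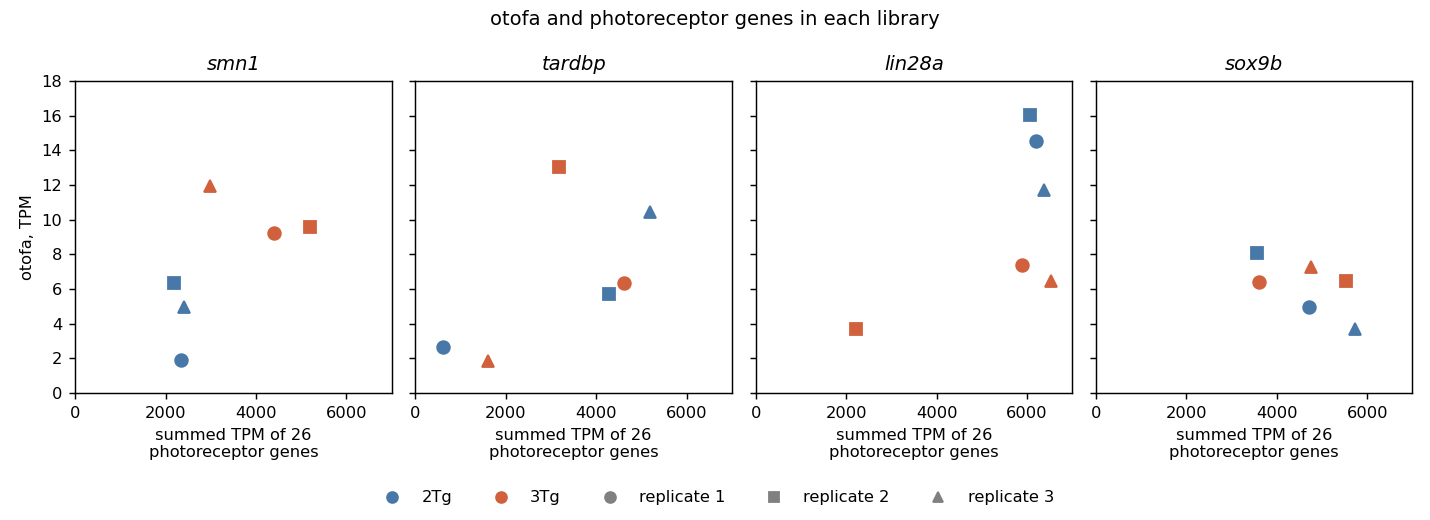
otofa TPM (vertical axis) against the summed TPM of 26 photoreceptor genes (horizontal axis), 1 point per library, by line, with 2Tg in blue and 3Tg in orange. In smn1 the 3Tg points lie above and to the right of the 2Tg points; in lin28a the 3Tg points lie below the 2Tg points, 2 of them at a similar photoreceptor sum and replicate 2 at 2210 TPM.

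Genes of the transduction apparatus were lower in level than the otoferlin genes. pcdh15a encodes protocadherin 15, the lower part of the tip link. In smn1 it was 0.968, 1.19 and 1.37 TPM in 2Tg and 2.06, 1.73 and 2.17 TPM in 3Tg. The groups did not overlap. The means were 1.18 ± 0.202 and 1.99 ± 0.229 TPM (SD, n = 3), with a log2 difference of 0.46 (SE 0.243). In tardbp, lin28a and sox9b the pcdh15a log2 differences were 0.36, 0.00 and −0.06, all with overlapping groups. The tardbp difference was 0.10 without 2Tg replicate 1 and −0.03 without 3Tg replicate 2.

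cdh23 encodes cadherin 23, the upper part of the tip link. Both of its entries stayed under 1 TPM in all 24 libraries, so neither passed the filter on low values in any line. In smn1 the second entry (ENSDARG00000094454) held 0.22, 0.16 and 0.10 TPM in the 2Tg libraries, against 0.25, 0.64 and 0.93 TPM in 3Tg, without overlap. Reads shared by the 2 entries could be split between them. Summed, they came to 0.378 ± 0.0786 TPM for smn1 2Tg, against 1.07 ± 0.534 TPM for 3Tg (SD, n = 3), also without overlap. In the other 3 lines the groups overlapped for both entries.

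tmc2b encodes a pore-forming subunit of the transduction channel, and it too passed the filter in none of the lines. Its groups overlapped in each line, with log2 differences of 0.59 (smn1), 0.06 (tardbp), −0.18 (lin28a) and 0.01 (sox9b). The smn1 value rests on 3Tg replicate 3, where tmc2b reached its highest level, 3.60 TPM; without that library the difference was 0.16. myo7aa encodes myosin 7A, a motor that anchors the tip link. Its 3Tg means were 2.98 ± 0.139 TPM in smn1 and between 2.34 and 3.62 TPM elsewhere (n = 3). The log2 differences of myo7aa were 0.40 in smn1 and between −0.05 and −0.01 in the other lines, with overlapping groups in all 4.

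oc90 (ENSDARG00000001721) encodes otoconin 90, a matrix protein of the earliest otolith particles. In sox9b it was 0.915, 1.54 and 0.808 TPM in 2Tg and 4.38, 3.14 and 2.98 TPM in 3Tg. The lowest 3Tg library was above the highest 2Tg library, as for 3.6% of all genes tested in sox9b, while 1.15% were lower without overlap. The means were 1.09 ± 0.395 and 3.50 ± 0.764 TPM (SD, n = 3), a 3.22-fold higher level in 3Tg. On the log2(TPM + 1) scale the difference was 1.11 (SE 0.231), and it lay between 0.98 and 1.26 over the leave-outs. The sox9b 3Tg group was the highest of the 8 groups, though tardbp 2Tg replicate 1 held a similar 3.79 TPM.

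In tardbp, oc90 was 3.79, 0.921 and 1.72 TPM in 2Tg and 0.822, 0.510 and 0.499 TPM in 3Tg. The groups did not overlap as deposited, as for 29.1% of genes tested in tardbp that were lower and 0.176% that were higher, and oc90 did not pass the filter there. The log2 difference was −0.87, and −0.51 without 2Tg replicate 1. The totals of tardbp were also rescaled without the 3 genes that took 44.0% of the TPM in 3Tg replicate 3. The highest 3Tg value was then 1.15 TPM and the lowest 2Tg value 0.934, so that the groups overlapped. In smn1 the oc90 difference was −0.46, with 0.58 and −1.47 within the 2 number formats, each with a single library in 1 of the groups. In lin28a, the line of its lowest levels, oc90 was between 0.181 and 0.806 TPM, with a difference of 0.08.

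otomp (ENSDARG00000040306) encodes otolith matrix protein, the other secreted otolith component of the set. In sox9b, where oc90 was separated, otomp averaged 26.5 ± 2.81 TPM in 2Tg and 25.5 ± 3.14 TPM in 3Tg (SD, n = 3), a log2 difference of −0.06 (SE 0.146). oc90 was thus 4.04 ± 1.05% of otomp in sox9b 2Tg and 14.1 ± 4.74% in sox9b 3Tg (SD, n = 3). The log2 differences of otomp were 0.39 in smn1, −0.27 in tardbp and −0.26 in lin28a, and its groups overlapped in every line. Single libraries set part of these values: otomp was at −0.02 in lin28a without 3Tg replicate 2, and at 0.18 in tardbp without 3Tg replicate 3. Of the 10 other otolith and otic matrix entries tested in sox9b, 8 were higher in 3Tg by sign, where 66.9% of all genes were. The 10 had a median log2 difference of 0.10, beside 0.07 over all genes, and none had groups without overlap. The crystal matrix gene stm (starmaker) was 95.4 ± 14.0 TPM in the controls, against 93.0 ± 12.1 TPM in 3Tg, and the otolith collagen gene otol1b 0.899 ± 0.426 against 1.25 ± 0.169 TPM (SD, n = 3). Both were chosen after their values were seen.

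**Figure D3:**
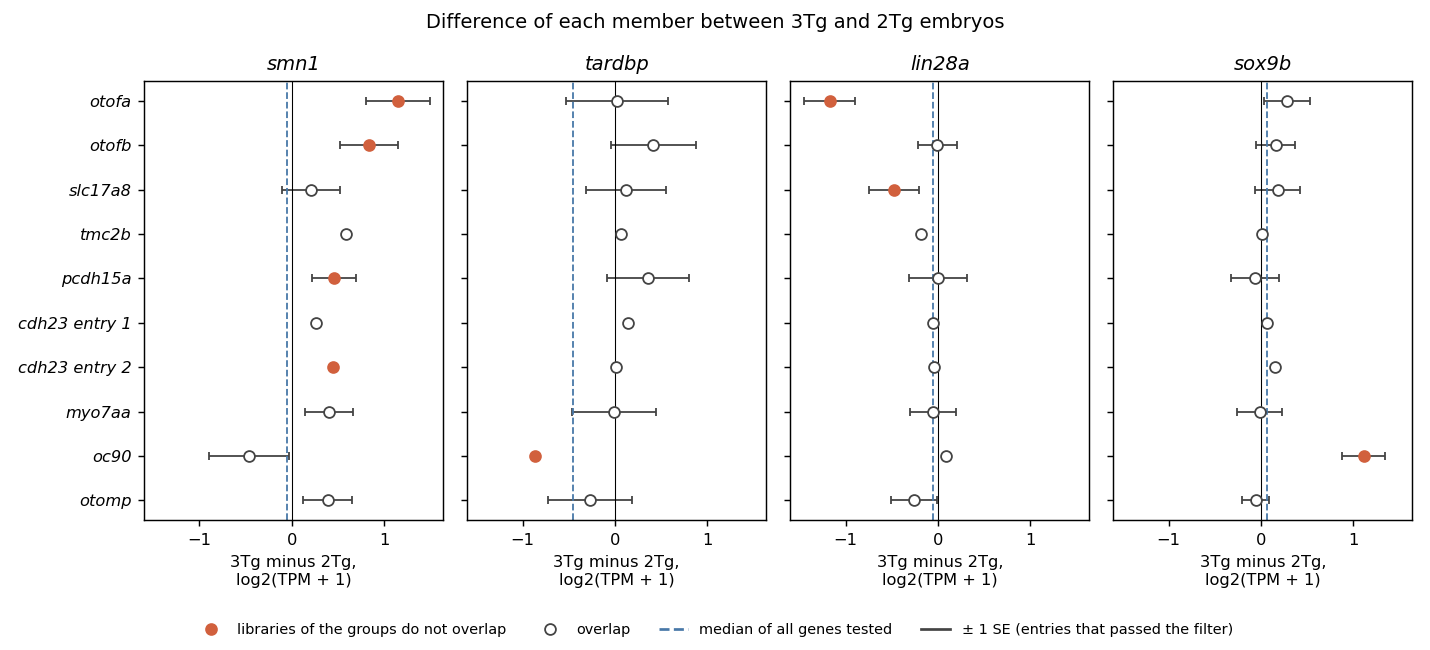
Difference of each entry, 3Tg minus 2Tg on the log2(TPM + 1) scale (horizontal axis), in the 4 lines; filled points have groups without overlap, horizontal bars are 1 limma standard error where the entry passed the filter, and the dashed line is the median of all genes tested. otofa lies at 1.15 in smn1 and −1.17 in lin28a, and oc90 at 1.11 in sox9b.

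Over the 10 entries, 4 had groups without overlap in smn1 (otofa, otofb, pcdh15a and the second cdh23 entry), all higher in 3Tg. In lin28a 2 entries were lower without overlap, otofa and slc17a8. For oc90 alone this held in tardbp, where it was lower, and in sox9b, where it was higher. The shares of all genes without overlap, given above, are background only: the genes were selected on these same contrasts, so nothing is read from the counts. Of the 10 entries, 7 passed the filter on low values (at least 1 TPM in at least 3 of 6 libraries) in the smn1 and sox9b lines, and 6 in the tardbp and lin28a lines.

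The median log2 difference over the 10 entries was 0.42 in smn1, where the median of all genes was −0.05. It was 0.04 in tardbp against −0.45 for all genes, −0.05 in lin28a against −0.05, and 0.11 in sox9b against 0.07. The 10 entries include those that failed the filter, whose differences are drawn toward zero by the pseudocount. The medians and shares of all genes cover only genes that passed it, so the sets are unlike. By sign, 9 of 10 entries were higher in smn1 3Tg, where 45.2% of all genes were. The count was 7 in tardbp (17% of all genes), 2 in lin28a (43%) and 7 in sox9b (66.9%). In tardbp, 21 of the 26 photoreceptor genes (median 0.32) and 4 of the 20 pan-neuronal genes (−0.34) were higher by sign. Without 2Tg replicate 1 these counts were 5 and 0, with medians of −0.39 and −0.58. Without 3Tg replicate 3, the library of low TPM sum, they were 22 and 11, with medians of 0.71 and 0.10. The part of these transcripts in the tardbp differences was not tested. The tardbp and sox9b medians changed sign when single libraries were left out, with ranges of −0.12 to 0.24 and −0.03 to 0.16. The smn1 median was 0.56 and 0.36 within its number formats, each with a single library in 1 of the groups.

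Other genes of the ear were taken from 8 lists by known function: tip link and channel, Usher complex, stereocilia, ribbon synapse, hair cell transcription factors, otolith matrix, otic patterning and lateral line. RNA was of whole embryos, so how much of the level of a listed gene came from the ear is unknown. The lists hold 142 symbols besides the 9, with 138 entries in the tables. None passed limma's adjusted threshold of 0.05 over all genes in any line, where the calls over all genes were 0% in smn1, lin28a and sox9b and 0.0103% in tardbp.

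In smn1, 119 ear genes were tested and 88 were higher in 3Tg by sign, or 73.9% against 45.2% of all genes. The median log2 difference of the 119 was 0.25, against −0.05 over all genes. Lists of other cell types were also higher by sign: 26 of 26 photoreceptor genes (median 0.86) and 17 of 20 pan-neuronal genes (0.27). So were 11 of 12 genes of retinal and other interneurons (0.33). The higher levels were thus not particular to the ear lists. At an unadjusted limma p under 0.05 there were 16 of the 119, 13 higher and 3 lower, that is 13.4% against 12.3% of all genes (5.87% higher and 6.44% lower). The count was 6 when 2Tg replicate 1 was left out, 10 when 2Tg replicate 2 was and 8 when 3Tg replicate 2 was, with a highest value of 20 over the leave-outs. The list medians ran from 0.00 for tip link and channel genes to 0.48 for ribbon synapse genes and 0.44 for hair cell transcription factors. The 4 of smallest p were s100t, eps8l2, cacna1db and espn. The calcium-binding hair cell protein gene s100t averaged 38.2 ± 10.5 TPM in the controls, against 80.8 ± 7.54 in 3Tg (SD, n = 3; log2 difference 1.09, limma adjusted p = 0.256). The stereocilia genes eps8l2 and espn stood at 7.23 against 16.8 TPM and at 1.35 against 3.82 TPM. Of 4 entries of the calcium channel gene cacna1db, 1 was lower, 3.25 against 1.24 TPM, while the other 3 entries had higher 3Tg means. Reads of this gene could be split among the 4 entries.

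In tardbp, 118 ear genes were tested, with a median log2 difference of −0.36 beside −0.45 over all genes. Of them 11 had an unadjusted limma p under 0.05, all lower, 9.32% against 13.7% of all genes (0.89% higher and 12.9% lower). After each library was centred on its median, 10 of 12 such genes were higher and the median was 0.09; the 12 were 10.2% of the ear genes, against 10.3% of all genes under the same centring, and the direction of the ear genes in tardbp depends on the scaling. Without 3Tg replicate 3, the library of low TPM sum, the ear median was −0.06 and that of all genes −0.16. The count was 2 when 2Tg replicate 1 was left out and 4 when 2Tg replicate 2 was, with a highest value of 16 over the leave-outs. The smallest p belonged to insm1a, sox2, pvalb9 and neurog1. The transcription factor genes insm1a and sox2 averaged 52.1 and 66.4 TPM in the controls, against 21.2 and 27.5 TPM in 3Tg (limma adjusted p = 0.336 each). The parvalbumin gene pvalb9 was 175 against 74.1 TPM, and neurog1, a factor for sensory ganglion neurons, 13.5 against 5.11 TPM.

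In lin28a, 122 ear genes were tested and 2 had an unadjusted limma p under 0.05, 1 higher and 1 lower, or 1.64% against 1.78% of all genes (0.7% higher and 1.08% lower). The list median was −0.01, with −0.30 for ribbon synapse genes and 0.20 for hair cell transcription factors. Active-zone gene rims2b, a partner of the ribbon synapse that neurons also use, averaged 16.1 ± 0.861 TPM in the controls, against 9.30 ± 2.62 in 3Tg (SD, n = 3; log2 difference −0.76, limma adjusted p = 0.980). The other 3 of smallest p were anxa5a (7.79 against 12.2 TPM), rfx3 (5.93 against 9.18 TPM) and atoh1a, the hair cell fate factor (1.52 against 2.80 TPM). Of the 18 hair cell transcription factor entries tested, 13 were higher in 3Tg by sign, where 43% of all genes were. In this list, 1 of the 8, 5 entries were higher without overlap, against 2.5% of all genes. Over all 122 ear genes 6 were higher and 5 lower without overlap. The count of ear genes at an unadjusted limma p under 0.05 was 1 to 6 over the leave-outs, the lowest when 2Tg or 3Tg replicate 2 was left out and the others 4 (2Tg replicate 1), 2 (2Tg replicate 3), 5 (3Tg replicate 1) and 6 (3Tg replicate 3). The summed pan-neuronal genes were 1070 TPM in 3Tg replicate 2 and 2402 to 2616 TPM in 2Tg; their part in the rims2b difference was not tested.

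In sox9b, 120 ear genes were tested and 3 had an unadjusted limma p under 0.05, 1 higher and 2 lower, or 2.5% against 1.22% of all genes (0.826% higher and 0.392% lower). The count was 6 after median centring, 1 higher and 5 lower, or 5% against 1.35% of all genes. Over the leave-outs it was 2 to 8. It was 5 (3 higher) when 2Tg replicate 2 was left out, 8 (3 higher) for 2Tg replicate 3, 7 (4 higher) for 3Tg replicate 1, and 2 for each of the other 3 libraries. The list median was 0.04 beside 0.07 over all genes. The hair cell transcription factor gene gfi1ab averaged 2.83 ± 0.0879 TPM in the controls, against 1.48 ± 0.128 in 3Tg (SD, n = 3; log2 difference −0.63, limma adjusted p = 1.000). Next by p were the Notch target her4.1 (8.68 against 13.1 TPM), which has near-identical neighbours that could share reads, cib3 (1.71 against 0.640 TPM) and xirp2a (46.4 against 57.5 TPM). Of these, xirp2a did not reach an unadjusted limma p under 0.05. The range of cib3 was 1.27 to 2.06 TPM in 2Tg and 0 to 1.55 TPM in 3Tg. Its 2Tg libraries were thus enough for it to pass the filter, and it is 1 of the 2 lower genes counted.

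**Figure D4:**
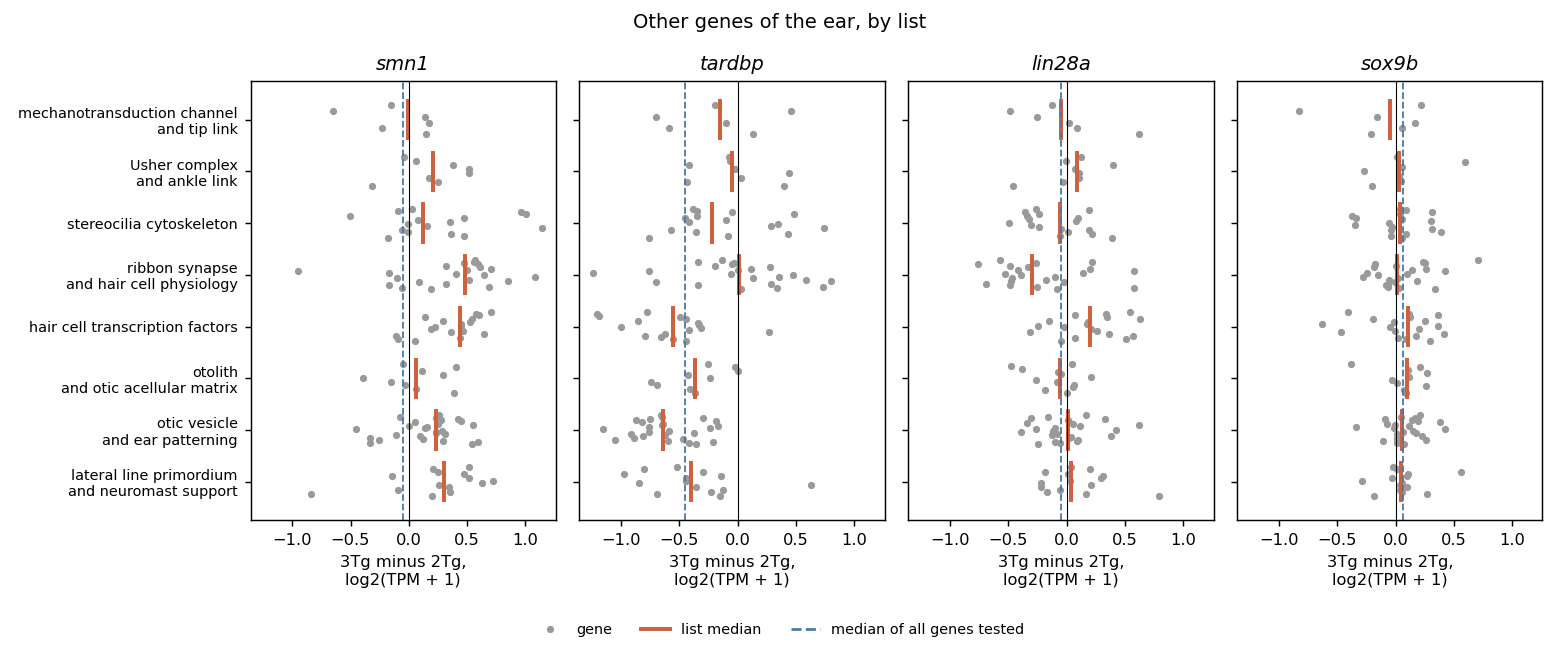
Difference of each tested ear gene outside the 9 (grey points), 3Tg minus 2Tg on the log2(TPM + 1) scale (horizontal axis), by list and line; orange bars are list medians and dashed lines the median of all genes tested. In smn1 the ribbon synapse list has the highest median, 0.48; in tardbp the otic patterning list is at −0.64 beside −0.45 for all genes.

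After the mean of each line was removed, the entries other than oc90 had a positive Pearson r over the 24 libraries in 36 of 36 pairs. The share of positive pairs over all genes was not counted, so nothing is read from this count. The median r was 0.50, beside 0.30 over all pairs of 19364 genes. Those genes had at least 1 TPM in at least 12 libraries, which tmc2b and both cdh23 entries, counted among the pairs, did not reach. The closest pairs, otofa with slc17a8 and pcdh15a with the first cdh23 entry, each had an r of 0.81. All 9 pairs with oc90 were negative, with a median of −0.19. These values describe libraries that share groups, composition and depth, and they carry no test.

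The genes most like the mean profile of the 7 hair cell genes were rimbp2 (r = 0.95), a presynaptic scaffold gene, then lrp1bb (0.94), cnr1 (0.93), CDK18 (0.93) and ptpn11b (0.92). For the mean of oc90 and otomp they were dspb (0.88), sgcd (0.87), myo18ab (0.86), dnmt3bb.1 (0.84) and mef2ca (0.84). The r of oc90 with otomp was −0.06, so their mean is not a profile that both share. The median r to this mean was 0.40 over all genes. The median r to the hair cell profile was 0.32 for 119 ear genes, 0.57 for the 26 photoreceptor genes and 0.53 for the 20 pan-neuronal genes, beside 0.19 over all genes.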

How the data were processed

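The authors deposited TPM, with 1 table of genes by libraries per line, per the file headers. The submitters' processing notes name Trimmomatic 0.39, STAR 2.7.10b, Salmon 1.10.1, GRCz11 and danRer11, without role or order. TPM hold no counts, so the depth is unknown and intervals for counting error were not computed. In the tables, 13 unnamed columns were not used. TPM are written with 6 decimals in 10 libraries and 6 significant digits in 14.

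Each line was fitted alone with limma 3.58.1 in R 4.3.3 (variance prior with a trend, two-sided) on log2(TPM + 1), 3Tg minus 2Tg, without scaling between libraries. A pseudocount of 1 understates differences of low genes. Genes with at least 1 TPM in at least 3 of 6 libraries were tested. A gene could thus pass through the 3 libraries of 1 group alone. Benjamini-Hochberg adjustment was over all of them, with a threshold of 0.05. The fit was run on simulated data in which each gene and library was drawn independently. Such data lack shifts shared by many genes of a library, so nothing is read from them here. The 9 genes and all lists were chosen with earlier results of these data known. All 9 are named in each line, with the 4 ear genes of smallest p, and the 5 genes of highest r per profile among genes of at least 1 TPM in 12 of 24 libraries. Alternatives were other pseudocounts and filters, centring, an untrended prior, a replicate block, 1 fit over 24 libraries and leave-outs. In another, totals were rescaled without the 20 most abundant genes. The number format terms were chosen after seeing the data. The second cdh23 entry takes its name from the tables only.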

Additional observations from a re-analysis of the deposited data

Results flagged for a closer look

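otofa differed between 3Tg and 2Tg in opposite directions in 2 lines, with every 3Tg library above every 2Tg library in smn1 (log2 difference 1.15) and every 3Tg library below every 2Tg library in lin28a (−1.17). The difference between the lines was not tested, since otofa was proposed with these values known.

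oc90 likewise was higher in every 3Tg library of sox9b (log2 difference 1.11) and lower in every 3Tg library of tardbp (−0.87, and −0.51 without 2Tg replicate 1). This difference was not tested either, and in tardbp the groups overlapped once totals were rescaled without 3 abundant genes.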

How the results depend on the processing

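The 8 differences of members whose groups did not overlap kept their sign under median centring, rescaled totals and, in smn1, the number format term. Leave-outs and pseudocounts cannot change the sign where groups do not overlap, so nothing is read from their signs. Alternatives that could move the size of a difference were 11 in smn1 and 10 in each other line. The 5 others (filters, prior, block and 1 fit over 24 libraries) leave a difference as it is by construction. Of 410 differences of single members that could move, 389 moved by less than the spread between replicates; 18 of the other 21 came from a pseudocount and 3 from median centring. The smn1 median of members, 0.42, was 0.78 with a pseudocount of 0.1 and 0.18 with a pseudocount of 5, and 0.32 to 0.53 over the leave-outs. The tardbp median, 0.04, was 0.48 after median centring. In smn1, limma called 0 genes, with 2421 at an unadjusted p under 0.05; it called 5 with an untrended prior and 0 to 2 over the leave-outs, 2 of them without 3Tg replicate 3. In tardbp it called 2 genes, and 0 after median centring, with rescaled totals, without the filter or with a pseudocount of 0.1. Over its leave-outs it called 0 to 166 (19, 120 and 166 without 2Tg replicates 1, 2 and 3, and 0 without 3Tg replicate 3). In 1 fit over 24 libraries tardbp gave 3160 calls, 3153 of them lower, with 14 ear genes, all lower (11.9% of 118 against 16.3% of all genes). The counts of lin28a and sox9b were 0 in each alternative, with 349 and 239 genes at an unadjusted p under 0.05. Whether replicate numbers pair the samples was not settled. Deviations of same-numbered libraries correlated at −0.34 to 0.38. Of 6 libraries, 2, 0, 5 and 2 were closest to their own number in smn1, tardbp, lin28a and sox9b. In lin28a the correlations were 0.38, 0.05 and 0.24, so pairing stays possible there. With a replicate block tardbp gave 28 calls and the other lines 0. Depth is unknown, so the genes near or under 1 TPM (cdh23, tmc2b, oc90) have a precision that only the spread between replicates shows, and 3 libraries a group limit every comparison.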

Other observations

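Genes most like single members over the 24 libraries were looked up after their values were seen. For otofa these were dnm1a (r = 0.92), kcnj10a, slc1a6, kcnd3 and grm3, genes known from neurons and glia. For oc90 they were rhd (0.86), slc39a5 (0.78), arl4aa (0.77), hbbe3 (0.76) and SERINC3 (0.76); rhd and hbbe3 are red blood cell genes. The median r of the 26 photoreceptor genes was 0.58 to otofa, 0.69 to otomp and −0.35 to oc90. For the 20 pan-neuronal genes it was 0.65, 0.66 and −0.07, and over all genes 0.25, 0.36 and 0.22. These correlations carry no test.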
